A study of Caenorhabditis elegans with 12 samples.

Results

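The 10 genes described here were grouped as genes of amphid channel shape and of the anchoring of the dendrites that end in the channel. They were chosen by name from the 46726 genes of the deposited count table. No rule on their measured values was used, but earlier results of these data were known. They are the sterol-sensing domain genes daf-6, che-14 and ptr-10, the extracellular matrix genes dyf-7, dex-1 and mam-5, the kinase and actin genes lit-1, wsp-1 and nab-1, and the sorting nexin gene snx-1. All 10 were found in the table and all 10 passed the filter on low counts, which left 16690 genes for testing.

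The amphid is the main sense organ of the C. elegans head. The ciliated endings of its sensory neurons lie in a channel formed by an amphid sheath (AMsh) glial cell and a socket glial cell. In published genetic work daf-6 and che-14 keep this channel narrow, lit-1 and its partner wsp-1 act against daf-6 to widen it, and loss of snx-1 relieves the daf-6 defect. The matrix proteins DYF-7 and DEX-1 hold the dendrite tips at the nose while the cell bodies move back, which is how amphid dendrites grow.

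RNA was sequenced from cells sorted out of L3 and L4 larvae grown for 36 to 42 h at 20 °C, in 4 groups of 3 libraries. The che-2 AMsh and wild type AMsh groups hold the dsRed-positive cells of che-2(e1033) animals (strain OS11549) and of wild type animals (strain OS4079). The che-2 non-AMsh and wild type non-AMsh groups hold the dsRed-negative cells of the same cultures, a mixture of the remaining cell types. Animals of both genotypes carried F16F9.3pro::dsRed, so the sort rests on this promoter, and each genotype was 1 strain. CHE-2 is a component of the transport machinery that builds cilia, and the series asked how AMsh glia respond when the cilia next to them are lost. Libraries are named by group and by the codes E30, E35 and E36. The titles of 3 of the 4 E36 libraries carry replicate number 1, as those of E30 do, and in the table the columns of the 4 E35 libraries bear names with E36 in them. Columns were assigned by the code that stands above them. The labels do not say outright that each code was a separate culture, and p-values measure only the spread between these libraries.

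Library totals ranged from 15420762 to 26019499 counts. Levels are given as CPM, the count of a gene relative to the scaled total of its library. A count of 0 allowed a level of up to 0.115 to 0.195 CPM of the unscaled total, depending on the library (3 counts, counting error only). The libraries che-2 AMsh E35 and wild type AMsh E30 stood apart, with 15711 and 14101 genes detected against 17555 to 19298 in the other 10, and are called the gene-poor libraries below. The AMsh marker F16F9.3 was at 73.5 to 465 CPM in che-2 AMsh libraries and 94.7 to 231 CPM in wild type AMsh libraries, against 5.19 to 8.58 CPM in che-2 non-AMsh and 4.40 to 9.3 CPM in wild type non-AMsh libraries. The marker ver-1 had no count in 2 of the 3 che-2 AMsh libraries and in wild type AMsh E30. The che-2 gene itself had 0.669, 12.5 and 4.69 CPM in che-2 AMsh libraries E30, E35 and E36, against 0, 2.18 and 0.666 CPM in wild type AMsh libraries. The che-2 non-AMsh libraries had 1.28, 3.71 and 0.281 CPM, against 0.485, 3.77 and 0.285 CPM in wild type non-AMsh libraries. The sources used here do not say whether e1033 lowers the transcript, so this level does not check the genotype label.

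On the scale of CPM per kb of exon, which allows levels of different genes to be compared, lit-1 was the highest of the 10 genes. Its mean level over the 12 libraries was 27.6 CPM per kb, above that of 82.0% of tested genes. The next genes, from high to low, were dyf-7 (11.2), snx-1 (9.36), nab-1 (7.90), che-14 (7.83), ptr-10 (6.90), wsp-1 (5.20), dex-1 (4.09) and daf-6 (3.56). The lowest was mam-5, at 1.92 CPM per kb, above 21.7% of tested genes. The step from lit-1 to dyf-7 was larger than the SD over the 12 libraries of either gene (9.87 and 5.63 CPM per kb). Each of the 8 lower steps was smaller than the larger SD of its pair, so those neighbours did not differ beyond their spread. For lit-1, the lowest group mean (20.3 ± 5.62 CPM per kb in che-2 non-AMsh, SD, n = 3) lay above every group mean of the other 9 genes.

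**Figure D1:**
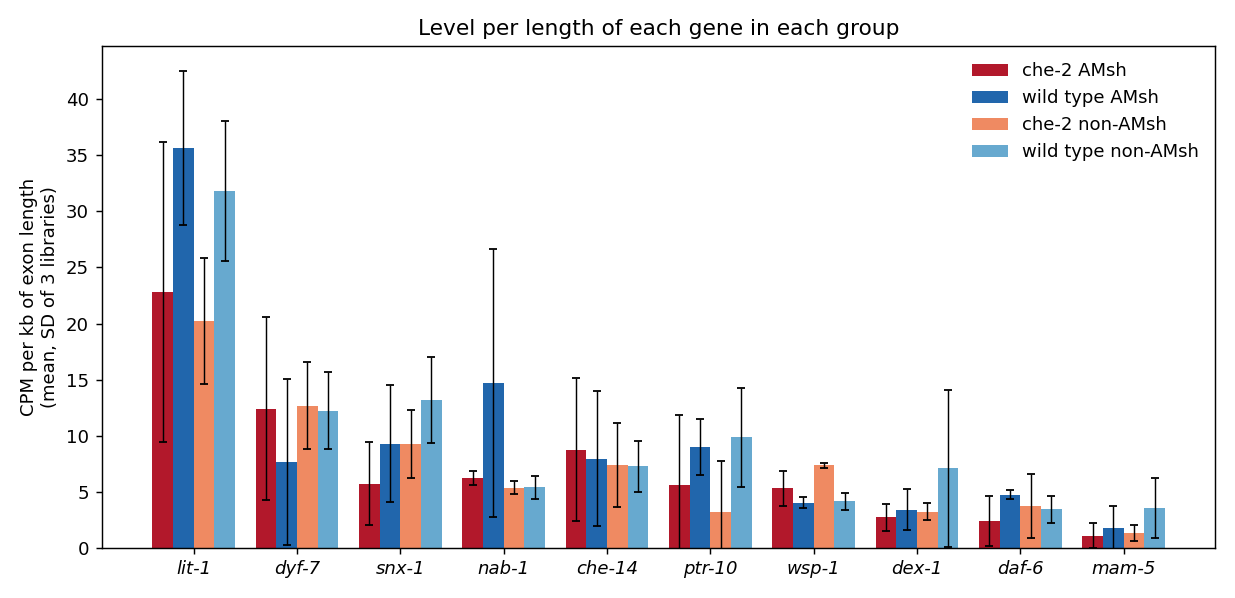
Level per exon length (CPM per kb, linear axis from 0) of the 10 genes in che-2 AMsh, wild type AMsh, che-2 non-AMsh and wild type non-AMsh libraries; bars are means and whiskers the SD of 3 libraries, cut at 0. The lit-1 bars stand above those of the other 9 genes in all 4 groups, and the wide whisker of nab-1 in wild type AMsh comes from library E30.

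Among the sterol-sensing domain genes, daf-6 (WBGene00000902; WBcel235 chromosome X, 14888487 to 14894326, plus strand, 14 merged exons) encodes a Patched-related membrane protein of the channel-facing surface. It had 13.7, 0.844 and 6.39 CPM in che-2 AMsh libraries E30, E35 and E36, against 15.0, 14.1 and 12.6 CPM in wild type AMsh libraries. In the non-AMsh fraction it had 18.9, 2.24 and 11.4 CPM in che-2 libraries, against 6.12, 11.1 and 12.9 CPM in wild type libraries. The 3 wild type AMsh libraries lay close together, the che-2 libraries spread widely with E35 lowest in both fractions, and the groups overlapped.

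The gene che-14 (WBGene00000493; chromosome I, 5746725 to 5754278, plus strand, 18 merged exons) encodes a Dispatched-related protein needed for secretion at apical surfaces. Its levels were 40.5, 4.78 and 31.2 CPM in che-2 AMsh libraries E30, E35 and E36, against 3.25, 30.2 and 36.0 CPM in wild type AMsh libraries. The non-AMsh levels were 34.1, 15.2 and 15.2 CPM in che-2 libraries, against 18.8, 28.6 and 16 CPM in wild type libraries. The only values under 5 CPM were those of che-2 AMsh E35 and wild type AMsh E30, the 2 gene-poor libraries.

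The gene ptr-10 (WBGene00004224; chromosome I, 5662143 to 5667144, plus strand, 16 merged exons) encodes another Patched-related protein, and its promoter is widely used to label glia. It had 36.7, 0.956 and 11.4 CPM in che-2 AMsh libraries E30, E35 and E36, against 27.9, 18.4 and 32.8 CPM in wild type AMsh libraries. In the non-AMsh fraction it had 24.6, 1.3 and 1.78 CPM in che-2 libraries, against 43.8, 19.8 and 23.1 CPM in wild type libraries. It had the widest spread among the genes counted in every library, 45.8-fold between the highest and the lowest. Its exons share 76 bases with F55F8.8 on the other strand, a gene with 225 counts in all against 5485 for ptr-10. Whether counting used the strand is not given in the sources used here.

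Of the extracellular matrix genes, dyf-7 (WBGene00001123; chromosome X, 9698678 to 9701600, plus strand, 11 merged exons) encodes a zona pellucida domain protein of the dendrite tip. It had 18.6, 37.7 and 9.39 CPM in che-2 AMsh libraries E30, E35 and E36, against 0, 14.5 and 26.2 CPM in wild type AMsh libraries. The non-AMsh levels were 15.3, 29 and 22.8 CPM in che-2 libraries, against 14.9, 26.7 and 23.1 CPM in wild type libraries. The non-AMsh groups nearly coincided. The AMsh groups overlapped, with no count at all in wild type AMsh E30 and the highest level of the 12 libraries in che-2 AMsh E35.

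The gene dex-1 (WBGene00017028; chromosome III, 5526071 to 5535481, plus strand, 16 merged exons) encodes a matrix protein that works with DYF-7. Its levels were 9.54, 6.07 and 15.2 CPM in che-2 AMsh libraries, against 14.9, 18.7 and 5.37 CPM in wild type AMsh libraries. In the non-AMsh fraction they were 10.5, 15.5 and 10.6 CPM in che-2 libraries, against 57.8, 13.7 and 9.65 CPM in wild type libraries. Apart from wild type non-AMsh E30, every library lay between 5.37 and 18.7 CPM, and the groups overlapped.

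The gene mam-5 (WBGene00011572; chromosome V, 9952699 to 9956883, plus strand, 10 merged exons) is named for the MAM domain, an extracellular adhesion domain. It had 6.11, 0.169 and 2.24 CPM in che-2 AMsh libraries, against 0, 10.1 and 4.04 CPM in wild type AMsh libraries. The non-AMsh levels were 3.83, 1.41 and 5.20 CPM in che-2 libraries, against 6.12, 17.5 and 4.68 CPM in wild type libraries. The value of che-2 AMsh E35 rests on 3 counts and that of wild type AMsh E30 on 0, so mam-5 was at or near the detection limit in both gene-poor libraries. Its exons share 4 bases with anmt-3 on the other strand.

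Among the kinase and actin genes, lit-1 (WBGene00003048; chromosome III, 13701993 to 13724383, plus strand, 14 merged exons) encodes the Nemo-like kinase. It had 134, 44.9 and 62.4 CPM in che-2 AMsh libraries E30, E35 and E36, against 124, 103 and 151 CPM in wild type AMsh libraries. In the non-AMsh fraction it had 90.9, 51.3 and 72.2 CPM in che-2 libraries, against 135, 111 and 90.7 CPM in wild type libraries. In each fraction 2 of the 3 che-2 libraries, E35 and E36, lay below all 3 wild type libraries, and E30 lay within their range.

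The gene wsp-1 (WBGene00006957; chromosome IV, 8188902 to 8198951, minus strand, 11 merged exons) encodes the Wiskott-Aldrich syndrome protein homologue, which starts branched actin assembly. It had 19.1, 12.1 and 22.5 CPM in che-2 AMsh libraries, against 15.2, 11.9 and 13.8 CPM in wild type AMsh libraries. In the non-AMsh fraction it had 25.0, 25.6 and 24.1 CPM in che-2 libraries, against 11.28, 16.3 and 14.5 CPM in wild type libraries. All 3 che-2 non-AMsh libraries lay above the other 9 libraries. This gene had the narrowest spread of the 10, 2.27-fold between the highest and the lowest library. An overlap of 18 bases with C07G1.12 on the other strand involves a gene with 1 count in all.

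The gene nab-1 (WBGene00003516; chromosome I, 4229577 to 4236039, plus strand, 11 merged exons) encodes neurabin, an actin-binding scaffold protein. Its levels were 18.8, 18.8 and 15.5 CPM in che-2 AMsh libraries, against 81.0, 21.8 and 22.4 CPM in wild type AMsh libraries. In the non-AMsh fraction they were 15.0, 13.6 and 17 CPM in che-2 libraries, against 17.1, 16.8 and 12.0 CPM in wild type libraries. The 3 wild type AMsh libraries lay above all 9 others, 1 of them, E30, by far, while the other groups lay between 12.0 and 18.8 CPM.

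The gene snx-1 (WBGene00004927; chromosome X, 1128986 to 1132925, plus strand, 7 merged exons) encodes a sorting nexin of the retromer, the coat that returns membrane proteins from endosomes. It had 16.6, 3.54 and 9.82 CPM in che-2 AMsh libraries, against 6.15, 23.9 and 18.6 CPM in wild type AMsh libraries. The non-AMsh levels were 21.3, 10.7 and 16.4 CPM in che-2 libraries, against 21.7, 30.3 and 17.1 CPM in wild type libraries. The lowest level of the 12 was again in che-2 AMsh E35, and the groups overlapped.

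**Figure D2:**
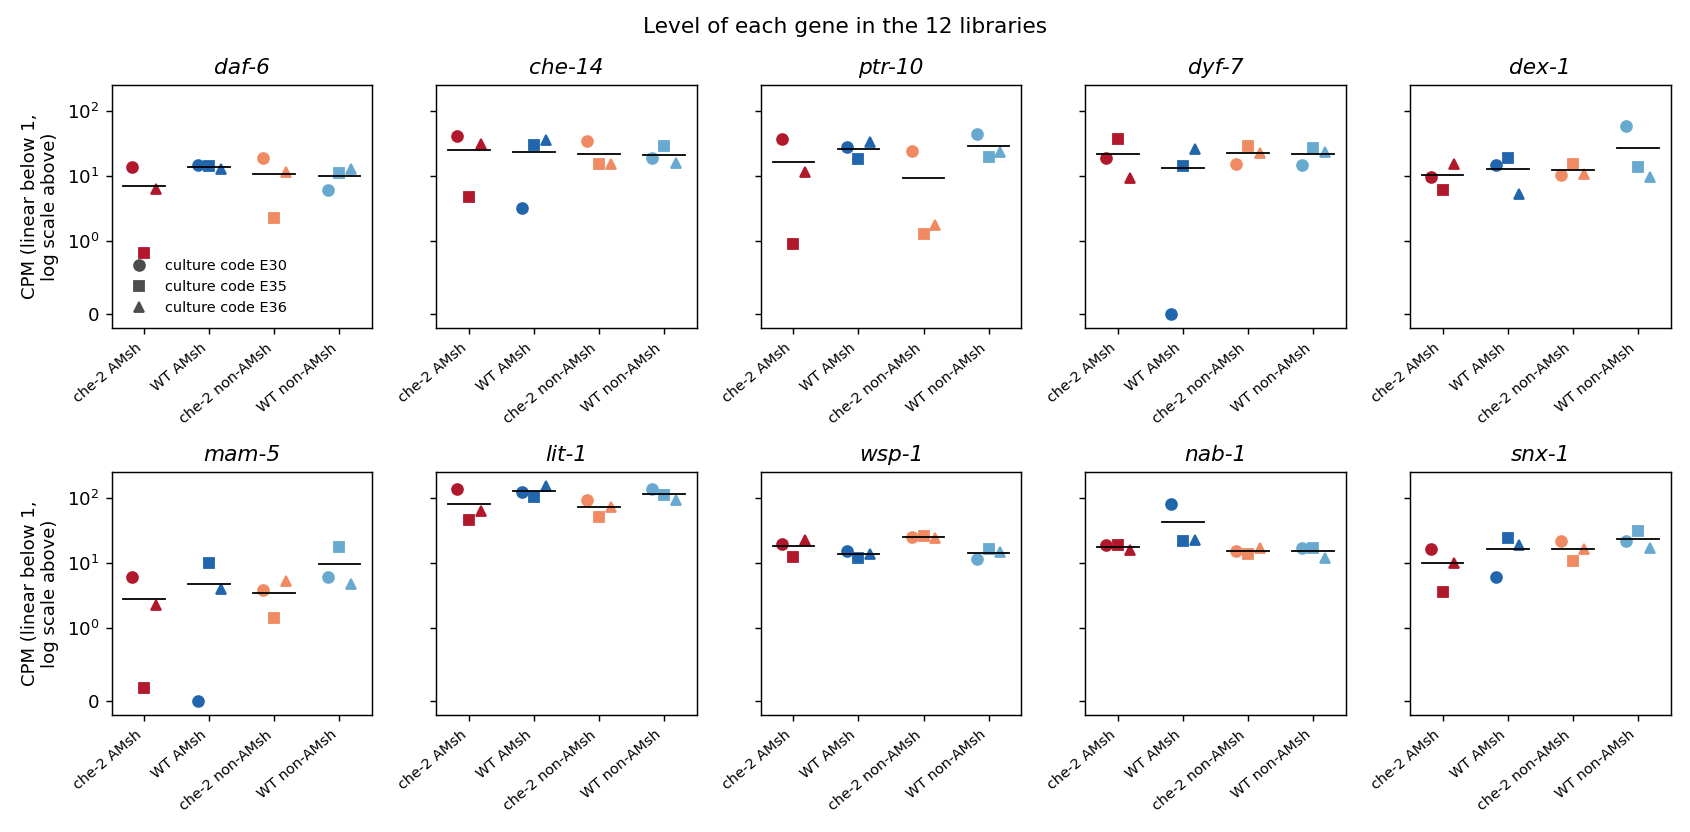
CPM of each of the 10 genes in che-2 AMsh, wild type AMsh, che-2 non-AMsh and wild type non-AMsh libraries (axis linear below 1 CPM and logarithmic above); points are libraries, shaped by code, and lines are group means of 3 libraries. The lowest points of daf-6, ptr-10, lit-1 and snx-1 are che-2 AMsh E35, and those of che-14, dyf-7 and mam-5 are wild type AMsh E30.

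Many of the extreme values lay in the 2 gene-poor libraries. These libraries held the lowest level of 7 of the 10 genes and the highest level of 2, dyf-7 in che-2 AMsh E35 and nab-1 in wild type AMsh E30. The same counts over all tested genes were not made, so this cannot be read as a trait of the 10 genes. How far the small number of detected genes accounts for these levels was not tested. In bulk samples such as these, fewer cells of a type and less RNA per cell cannot be told apart.

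The first comparison asked whether these genes were enriched in AMsh glia. No difference between the AMsh and the non-AMsh fraction passed the test for any of the 10 genes, from daf-6 and che-14 to lit-1 and snx-1. Averaged over the genotypes, 0 of 10 passed an adjusted p of 0.05 in edgeR's quasi-likelihood test, against 0.875% of all tested genes, and the unadjusted p of 1 gene, nab-1, was under 0.05, against 4.48% of all tested genes. Over the 6 AMsh and 6 non-AMsh libraries the fractions overlapped for all 10 genes, and 0.923% of all tested genes did not overlap. The mean of the log2 changes in che-2 and in wild type ran from −0.65 for dex-1 and mam-5 to 0.83 for nab-1. The median of the 10 was −0.17, beside −0.05 over all tested genes, with 4 genes positive and 6 negative.

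For nab-1 the averaged log2 change was 0.83 (SE 0.34, 95% interval 0.10 to 1.57, unadjusted p = 0.0291, adjusted p = 0.922). AMsh levels of nab-1 were above the non-AMsh levels in 5 of 6 cultures, the exception being che-2 E36. Of all tested genes, 28.9% went in 1 direction in 5 or 6 of the 6 cultures. Without wild type AMsh E30 the averaged change of nab-1 was 0.38 (SE 0.21, adjusted p = 1.00), and the adjusted p ran from 0.532 to 1.00 over the alternative fits. In wild type alone it was 1.45 (SE 0.48, interval 0.40 to 2.50, unadjusted p = 0.0109, adjusted p = 0.812), and without that library 0.53 (SE 0.32, adjusted p = 1.00; 0.242 to 1.00 over the alternative fits).

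In wild type 0 of 10 genes passed the adjusted threshold, against 0.437% of all tested genes, and 1 gene, nab-1, had an unadjusted p under 0.05, against 3.81%. The fractions did not overlap for 1 gene in wild type, nab-1, against 8.65% of all tested genes. In che-2 0 of 10 genes passed, against 0.593% of all tested genes, and 0 had an unadjusted p under 0.05, against 2.98%. There the fractions did not overlap for 1 gene, wsp-1, against 8.08% of all tested genes. The che-2 AMsh levels of wsp-1 were lower, with a log2 change of −0.47 (SE 0.34, interval −1.21 to 0.26, adjusted p = 1.00). Within cultures, AMsh was below non-AMsh in 5 of 6 for mam-5, snx-1 and wsp-1. Beside these genes and nab-1, 28.9% of all tested genes went in 1 direction in 5 or 6 of 6 cultures.

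**Figure D3:**
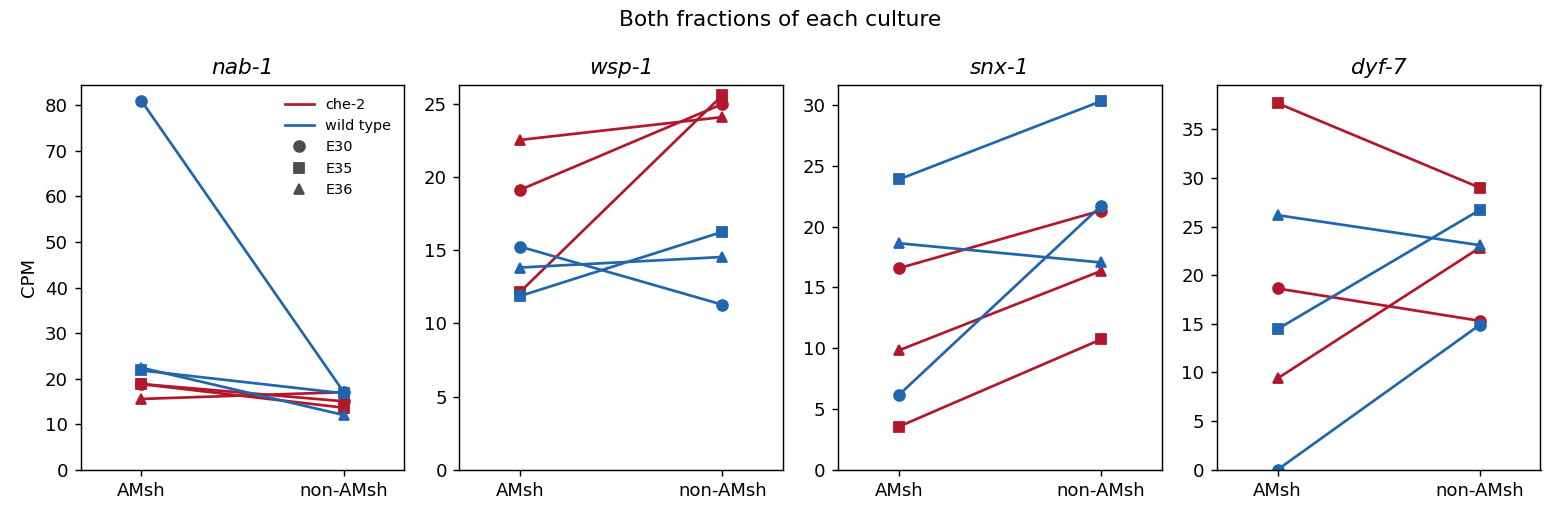
CPM (linear axes from 0) in the AMsh and non-AMsh libraries of each culture for nab-1, wsp-1, snx-1 and dyf-7; lines join both fractions of a culture, coloured by genotype and shaped by code. The nab-1 level is higher in AMsh than in non-AMsh in 5 of 6 cultures, by far the most in wild type E30 (81.0 CPM in AMsh), and those of wsp-1 and snx-1 are lower in AMsh in 5 of 6. Such counts of 5 or 6, in either direction, were found for 28.9% of all tested genes.

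The intervals set upper limits on enrichment averaged over the genotypes. The upper bound of the averaged log2 change ran from 0.26 for wsp-1 to 2.07 for ptr-10. Within single genotypes the bounds reached higher, up to 3.28 for ptr-10 in che-2 and 2.50 for nab-1 in wild type. The marker F16F9.3, whose promoter drove the sort, had an averaged change of 5.03 (SE 0.48, interval 3.98 to 6.07, adjusted p = 0.000219), and fig-1, another AMsh marker, had 3.66 (SE 0.47, interval 2.64 to 4.67, adjusted p = 0.00108). Every averaged upper bound of the 10 genes lay below the averaged lower bounds of these 2 markers. It did not lie below those of all AMsh markers: kcc-3, also on that list, had 2.57 (SE 0.43, interval 1.64 to 3.50, adjusted p = 0.00928), and its lower bound is under the upper bound of ptr-10. The value of ptr-10 also depended on single libraries, at −0.35 without che-2 AMsh E30 and 1.64 without che-2 non-AMsh E30. For daf-6, whose product acts in the AMsh cell, the averaged change was −0.08 (SE 0.59, interval −1.37 to 1.21).

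The AMsh fraction also held transcripts of other cell types. Summed over 10 hypodermis markers, the level was 1820 to 18400 CPM in che-2 AMsh and 9662 to 13202 CPM in wild type AMsh libraries, against 4325 to 14193 CPM in che-2 non-AMsh and 7365 to 14040 CPM in wild type non-AMsh libraries. Between fractions averaged over genotypes, 0 of these 10 markers passed in edgeR or in DESeq2, and 0 had an unadjusted p under 0.05. The 6 socket and other glia markers summed to 93.9 to 378 CPM in che-2 AMsh and 27.2 to 234.8 CPM in wild type AMsh libraries, against 47.7 to 87.4 CPM in che-2 non-AMsh and 62.2 to 77.8 CPM in wild type non-AMsh libraries. Averaged over genotypes, 0 of these 6 passed in edgeR, 1 had an unadjusted p under 0.05 and DESeq2 called 1. Their median log2 change was −0.25, beside −0.05 over all tested genes, so the higher sums do not describe the typical marker of this list. Of all tested genes, 0.875% passed in edgeR in this comparison and 4.48% had an unadjusted p under 0.05. The part of such cells in the levels of the 10 genes was not tested.

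The second comparison asked whether these genes changed in AMsh glia of animals with defective cilia. No change of any of the 10 genes passed the test, and most of their intervals were wide. In che-2 AMsh against wild type AMsh, 0 of 10 genes passed the adjusted threshold, against 0.461% of all tested genes. The unadjusted p was under 0.05 for nab-1 only, against 12.8% of all tested genes. Groups did not overlap for nab-1 only, against 17% of all tested genes. The log2 changes ran from −1.24 for nab-1 to 0.69 for dyf-7, with 7 genes negative and 3 positive and a median of −0.67, beside 0.12 over all tested genes.

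That median depended on single libraries. It was −0.14 without wild type AMsh E35 and −0.15 without che-2 AMsh E35, and −0.37 without both gene-poor libraries. Without che-2 AMsh E30 it was −1.25. None of the 10 genes passed in any of these fits.

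For nab-1 the change in AMsh was −1.24 (SE 0.48, interval −2.28 to −0.19, unadjusted p = 0.024, adjusted p = 0.302). Wild type AMsh E30 decided its size: without it the change was −0.32 (SE 0.32, adjusted p = 0.784), the highest of the alternative fits, whose lowest was 0.118. The kinase gene lit-1 had −0.65 (SE 0.41, interval −1.55 to 0.26, adjusted p = 0.552), wsp-1 had 0.40 (SE 0.34, interval −0.34 to 1.13) and snx-1 had −0.70 (SE 0.60, interval −2.0 to 0.60). The intervals of lit-1, wsp-1 and snx-1 all included 0. Leaving out che-2 AMsh E30 gave −1.23 for lit-1 (adjusted p = 0.202) and −1.28 for snx-1, and leaving out che-2 AMsh E35 gave −0.36 and −0.30. Wild type libraries moved snx-1 as well, to −1.09 without E30 and −0.31 without E35.

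Of the sterol-sensing domain genes, daf-6 averaged 6.97 ± 6.44 CPM in che-2 AMsh and 13.9 ± 1.19 CPM in wild type AMsh (SD, n = 3 each). Its log2 change was −0.99 (SE 0.85, interval −2.84 to 0.85, adjusted p = 0.672). For ptr-10 the change was −0.69 (SE 1.12, interval −3.13 to 1.75) and for che-14 it was 0.14 (SE 0.81, interval −1.62 to 1.90). Without che-2 AMsh E30 the values were −1.93 for daf-6 and −2.08 for ptr-10, and without che-2 AMsh E35 they were −0.47 and −0.13. All 3 intervals included 0 and reached beyond 1 on the log2 scale on at least 1 side.

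Of the extracellular matrix genes, dyf-7 and mam-5 had the widest intervals of the 10 together with ptr-10. The change of dyf-7 was 0.69 (SE 1.15, interval −1.81 to 3.20), that of mam-5 −0.73 (SE 1.40, interval −3.77 to 2.31) and that of dex-1 −0.34 (SE 0.67, interval −1.80 to 1.13). For dyf-7 the value was −0.54 without the gene-poor libraries, where its 0 in wild type AMsh E30 and its 37.7 CPM in che-2 AMsh E35 are left out.

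**Figure D4:**
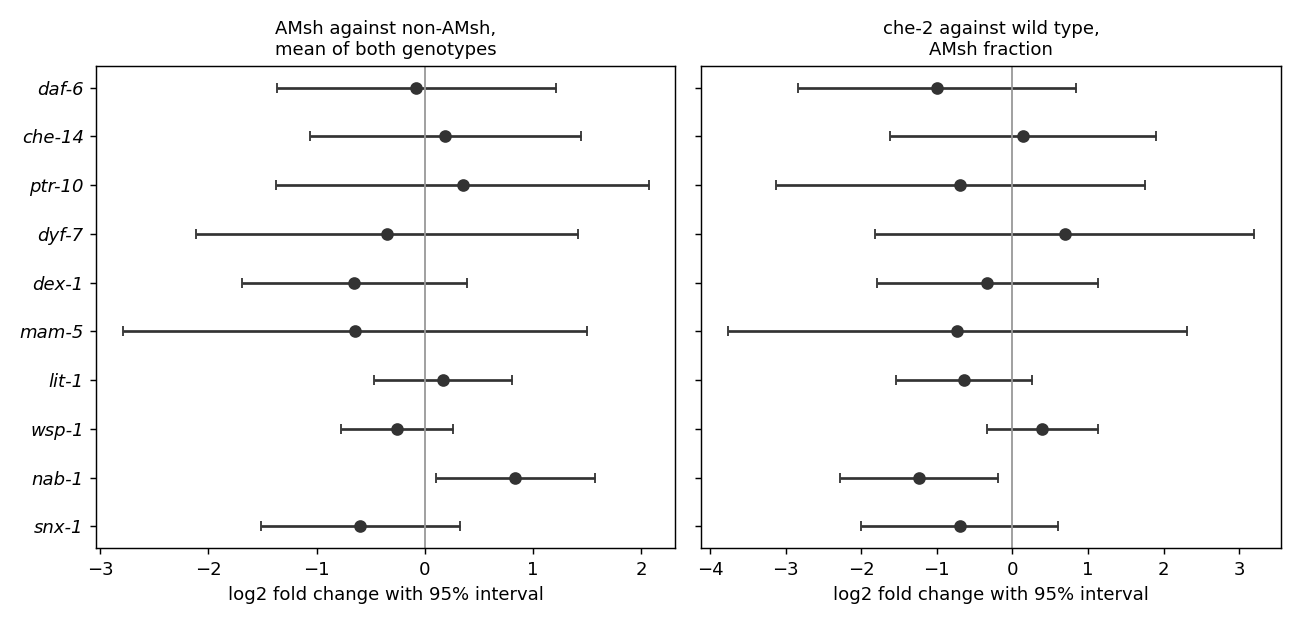
log2 fold change with its 95% interval (edgeR, 12 libraries) for each of the 10 genes: AMsh against non-AMsh averaged over the genotypes (left) and che-2 AMsh over wild type AMsh (right); the horizontal axes differ in range. All intervals include 0 except those of nab-1, 0.10 to 1.57 on the left and −2.28 to −0.19 on the right, and neither passed after adjustment over 16690 genes.

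The third comparison asked the same in the cells outside the AMsh sort. In che-2 non-AMsh against wild type non-AMsh, 0 of 10 genes passed, against 0.144% of all tested genes. The only unadjusted p under 0.05 was that of wsp-1, beside 10.3% of all tested genes. Its level averaged 24.9 ± 0.746 CPM in che-2 non-AMsh and 14 ± 2.53 CPM in wild type non-AMsh (SD, n = 3 each). The log2 change was 0.83 (SE 0.34, interval 0.09 to 1.57, unadjusted p = 0.0311, adjusted p = 0.404). Over the alternative fits it stayed between 0.69 and 0.95, with adjusted p between 0.114 and 0.961. The groups did not overlap for this gene alone of the 10, against 22.2% of all tested genes. The median change of the 10 genes was −0.26, beside −0.01 over all tested genes, with 6 genes negative.

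The last comparison asked whether the change between genotypes differed between the fractions. No gene of the 10 passed, and none of all tested genes did (0%), with an unadjusted p under 0.05 for 0 of the 10 and for 1.68% of all tested genes. The smallest p was that of nab-1, at −1.23 (SE 0.67, interval −2.69 to 0.23, unadjusted p = 0.0918, adjusted p = 1.00), and it was −0.31 without wild type AMsh E30. DESeq2, run on the same genes, also called 0 of 10 in all 6 comparisons. Its lowest adjusted p for any of the 10 was 0.114, for wsp-1 between the genotypes in non-AMsh.

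Beyond the group means, several genes followed the individual cultures of che-2 animals. Both fractions of culture E30 had the highest che-2 levels for 5 of the 10 genes, daf-6, che-14, ptr-10, lit-1 and snx-1, beside 18.2% of all tested genes. Both fractions of culture E35 had the lowest for 5, daf-6, ptr-10, mam-5, lit-1 and snx-1, beside 20.7% of all tested genes, and the highest for dyf-7. Over all tested genes, deviations from the group means in both fractions of a culture correlated at r 0.60 for che-2 E30 and 0.52 for che-2 E35. In wild type, at most 2 genes shared a culture at either end. The pattern was noticed after the values were seen, and it is a description of 3 che-2 cultures. Culture and any other difference between the codes cannot be told apart here.

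Across the 12 libraries, lit-1 and ptr-10 varied together (Pearson r of log2 CPM 0.89, and 0.84 in the 10 libraries left without che-2 AMsh E35 and wild type AMsh E30). With daf-6 the r was 0.74 for lit-1 and 0.73 for ptr-10, and 0.57 and 0.56 in the 10 libraries. The pair mam-5 and snx-1 had r 0.94, and 0.89 in the 10 libraries. All these values share libraries, cultures and depth, and they describe these libraries without a test. Other pairs rested on the 2 libraries. For che-14 with mam-5 r was 0.81 over 12 libraries and 0.25 over 10, for che-14 with snx-1 0.78 and 0.24, and for dyf-7 with nab-1 −0.88 and −0.09. In the other direction, wsp-1 and lit-1 had r −0.37 over 12 libraries and −0.71 over 10.

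The genes most like each member were the 3 with the highest r among the 10400 tested genes with a mean of at least 5 CPM. For lit-1 they were sym-1 (0.96), cdh-7 (0.95) and lpr-3 (0.95), and these held in the 10 libraries at 0.94, 0.93 and 0.94. Both sym-1 and lpr-3 encode secreted proteins of the apical extracellular matrix. The level of lpr-3 was 593, 45.3 and 64.4 CPM in che-2 AMsh libraries E30, E35 and E36, against 565, 403 and 692 CPM in wild type AMsh libraries. In non-AMsh it was 403, 41.1 and 96.1 CPM in che-2 libraries, against 682, 513 and 521 CPM in wild type libraries. The same 4 che-2 libraries, E35 and E36 of each fraction, were low for lit-1 and for lpr-3, over a wider range for lpr-3.

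For ptr-10 the most alike were R57.2 (0.97), F23H12.5 (0.97) and Y38H6C.16 (0.96), each at 0.95 or more in the 10 libraries. For daf-6 they were F35D2.2 (0.97), the hedgehog-related gene grd-1 (0.96) and Y47G6A.15 (0.96), at 0.94, 0.90 and 0.92 in the 10 libraries. For wsp-1 they were F58H1.6 (0.94), Y53F4B.11 (0.90) and the splicing factor gene mog-3 (0.89), and these were as high in the 10 libraries. For dex-1, with C51E3.6 (0.87), the neuropeptide gene nlp-20 (0.84) and the discoidin domain receptor gene ddr-2 (0.84), no candidate reached 0.90. The likeness of these sets thus did not rest on the 2 libraries.

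Most of the nearest genes of the other members had a lower r in the 10 libraries. For dyf-7 they were bpl-1 (0.97), sup-10 (0.97) and nol-9 (0.97), at 0.69, 0.61 and 0.68 in the 10 libraries. For nab-1 they were gls-1 (0.91), T05F1.13 (0.91) and ugt-54 (0.90), at 0.33, 0.60 and 0.56. For che-14 they were the potassium channel gene twk-25 (0.97), F18F11.4 (0.94) and nep-15 (0.94), at 0.92, 0.78 and 0.68, so that twk-25 stayed high. Besides each other (0.89 in the 10 libraries), mam-5 and snx-1 had gadr-6 (0.94) and C26D10.6 (0.92), and nhr-91 (0.93) and swip-10 (0.91), all between 0.75 and 0.79 in the 10 libraries.

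**Figure D5:**
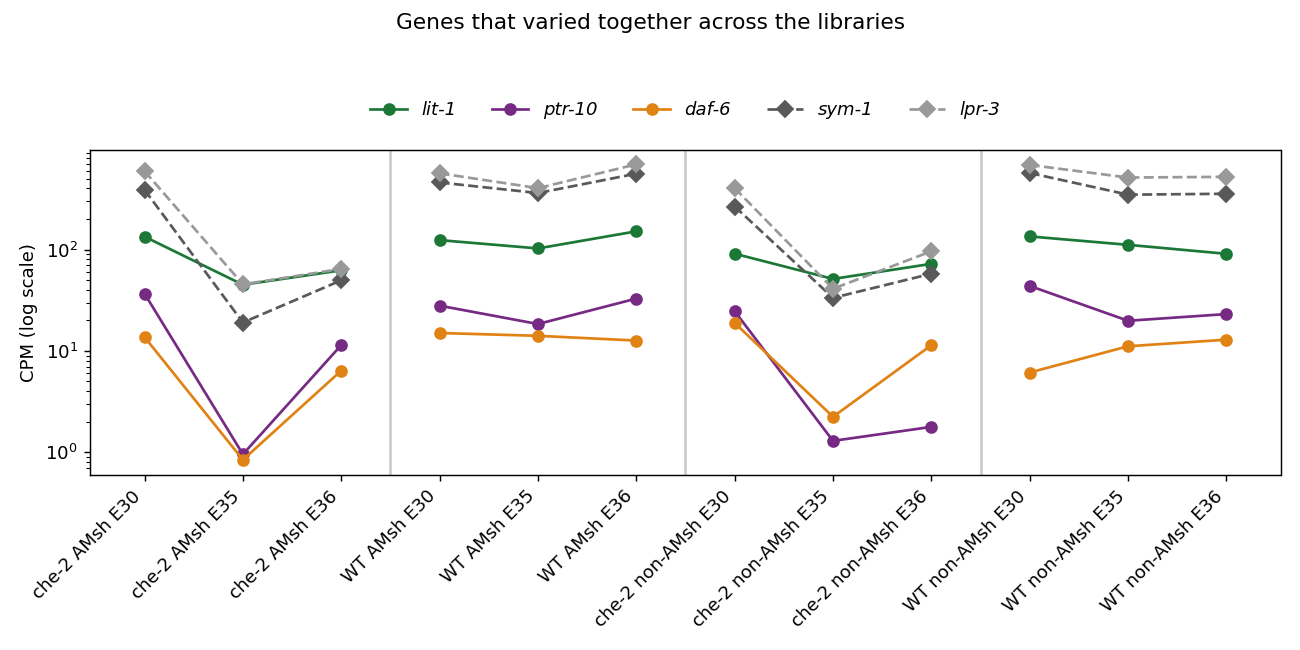
CPM (log axis) of lit-1, ptr-10, daf-6 and the 2 matrix genes sym-1 and lpr-3 in each of the 12 libraries, grouped by che-2 AMsh, wild type AMsh, che-2 non-AMsh and wild type non-AMsh; lines only help the eye to follow a gene. In both che-2 groups, E30 sits near the wild type levels and E35 and E36 lie below them for lit-1, ptr-10, sym-1 and lpr-3.

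Other genes of the pathways around the 10 were examined as 6 lists. No gene of any list passed in any of the 6 comparisons in edgeR. Unadjusted p-values under 0.05 numbered at most 3 in any list and comparison, the 3 being in the Nemo kinase and Wnt list between genotypes in AMsh and in the matrix list between genotypes in non-AMsh. That is 3 of 25 and 3 of 12 genes, beside 12.8% and 10.3% of all tested genes in these comparisons. DESeq2 called 1 gene of each of these lists between genotypes in AMsh and no other, beside 5.32% of all genes with an adjusted p in DESeq2. The apical extracellular matrix of tubes and dendrite tips (12 genes, all measured) had a median log2 change of −1.16 in che-2 AMsh against wild type AMsh and −1.50 in che-2 non-AMsh against wild type non-AMsh, beside 0.12 and −0.01 over all tested genes. Summed over the list, the level was 1987, 205 and 375 CPM in che-2 AMsh libraries E30, E35 and E36, against 1948, 1579 and 2338 CPM in wild type AMsh libraries. In non-AMsh it was 1457, 193 and 348 CPM in che-2 libraries, against 2487, 1635 and 1672 CPM in wild type libraries. Libraries E35 and E36 of both che-2 groups were low and E30 was near the wild type range, the same order as for lit-1. The matrix list holds sym-1 and lpr-3, which were picked above for their likeness to lit-1 in these libraries. The shared order is in part fixed by that choice and is not a separate observation.

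In the same libraries, the summed level of 10 hypodermis markers was 18400, 1820 and 9948 CPM in che-2 AMsh E30, E35 and E36, against 9662, 12362 and 13202 CPM in wild type AMsh. It was 14193, 4325 and 11024 CPM in che-2 non-AMsh, against 7365, 11886 and 14040 CPM in wild type non-AMsh. Culture E30 was highest and E35 lowest in both che-2 fractions, as for lit-1. Placed against the wild type range, the sum and lit-1 differed. In both fractions the sum of E36 lay within the wild type range and that of E30 above it. The lit-1 level lay below its wild type range in E36 and within it in E30. In non-AMsh, E30 was close to the edge, at 14193 against 14040 CPM for the sum and 90.9 against 90.7 CPM for lit-1. The median log2 change of these 10 markers between genotypes was −0.62 in AMsh and −0.72 in non-AMsh, beside −0.65 for lit-1 in each fraction. The level of sperm markers leaned the other way between genotypes. Their 6 genes summed to 230 to 509 CPM in che-2 AMsh and 68.6 to 120 CPM in wild type AMsh libraries, and to 191 to 735 CPM in che-2 non-AMsh and 52.2 to 236 CPM in wild type non-AMsh libraries. Their median log2 change between genotypes was 2.10 in AMsh and 1.95 in non-AMsh, beside 0.12 and −0.01 over all tested genes. In each fraction 0 of the 6 passed in edgeR, beside 0.461% of all tested genes in AMsh and 0.144% in non-AMsh. The unadjusted p was under 0.05 for 4 in each fraction, beside 12.8% and 10.3% of all tested genes. DESeq2 called 2 in each fraction, beside 5.32% of all genes with an adjusted p in AMsh. The part of hypodermal or sperm RNA in the levels of lit-1 and the matrix genes was not tested.

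The matrix gene with the smallest p between genotypes in AMsh was egg-6, a leucine-rich repeat protein of epithelial surfaces. It averaged 24.4 CPM in che-2 AMsh and 75.5 CPM in wild type AMsh, a log2 change of −1.63 (SE 0.49, adjusted p = 0.199). In non-AMsh it was let-4, another protein of that family, averaging 45.2 CPM in che-2 non-AMsh and 149 CPM in wild type non-AMsh (−1.72, SE 0.62, adjusted p = 0.317). Neither gene passed. Between fractions the smallest p averaged over genotypes was that of dyf-4, a secreted partner of daf-6 in the channel, at 0.63 (SE 0.29, adjusted p = 1.00).

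In the Nemo kinase and Wnt list (25 genes), the median change between genotypes in AMsh was −0.03, and mig-14, which carries Wnt proteins to the surface, had the smallest p (−1.78, SE 0.58, adjusted p = 0.231). The actin nucleation list around WSP-1 (25 genes) had a median of −0.11, with arx-4, an Arp2/3 subunit, at 0.93 (SE 0.37, adjusted p = 0.307). The Patched-related and sterol-sensing list (27 of 28 genes measured) had a median of −0.41, with ptr-12 at −1.15 (SE 0.55, adjusted p = 0.413). The retromer and sorting nexin list (7 genes) had a median of 0.48, with vps-26, a core subunit, at 1.14 (SE 0.57, adjusted p = 0.432). The apical junction and polarity list (17 genes) had a median of −0.22, with crb-1, a Crumbs homologue, at 2.09 (SE 1.13, adjusted p = 0.475). The median over all tested genes in this comparison was 0.12.

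Between the fractions, the smallest p of each list averaged over genotypes belonged to the sorting nexin gene snx-27 (1.10, SE 0.48), the Axin gene pry-1 (−1.02, SE 0.42), the GTPase gene cdc-42 (0.52, SE 0.27), the Patched-related gene ptd-2 (−1.56, SE 0.85) and the Scribble gene let-413 (0.72, SE 0.36). The adjusted p was 0.958 for pry-1 and 1.00 for the other 4. The medians of these lists lay between −0.13 and 0.25, beside −0.05 over all tested genes.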

How the data were processed

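Per the submitters' processing notes, the authors used CASAVA 1.8.2, FastQC, STAR 2.3, featureCounts and the build WBcel235. The deposited table holds raw counts of reads for each gene in each library, as whole numbers, with exon coordinates and summed exon length. The strand setting and annotation release are not given in the sources used here. RNA (0.4 to 5 ng) was amplified without molecular identifiers stated, so floors cover counting error only. Symbols came from the reference gene names (43623 of 46726 identifiers).

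Counts were scaled by the trimmed mean of M values, filtered with filterByExpr over the 4 groups, and fitted with all 12 libraries in 1 quasi-likelihood model in edgeR 4.0.16 (R 4.3.3; 8 residual degrees of freedom, common biological coefficient of variation 0.732). Tests were 2-sided, with Benjamini-Hochberg adjustment over 16690 genes within each of 6 comparisons, at 0.05. Standard errors came from the log2 change and its F statistic. Correlations used log2(CPM + 0.5). The test was checked on simulated data, with the spread of each gene capped below the common value here. That check does not show its power in these libraries. Figures were drawn with Python 3.11.15, pandas 2.3.3 and matplotlib 3.10.9.

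Alternatives were other scalings, DESeq2 1.42.0, no filter, only the 6 libraries compared, libraries left out, ribosomal and mitochondrial genes left out, and replicate blocks. The correlations over 10 libraries were added after seeing the data. Per the labels' sorting protocol, the fractions of 1 culture share their animals, and their deviations from the group means correlated at 0.218 to 0.599 in all 6 pairs, so culture pairs the fractions; its block changed no call of the 10 genes. The 10 genes, the lists and the tests were chosen with earlier results of these data known. The named genes are the 10, che-2 and 2 AMsh markers, F16F9.3 and fig-1. Per list the gene with the smallest p is named where none passed, and for each member its 3 most alike genes. The AMsh markers kcc-3 and ver-1 were named outside this rule, kcc-3 for its interval and ver-1 after its values were seen.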

Additional observations from a re-analysis of the deposited data

How the results depend on the processing

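None of the 10 genes passed an adjusted p of 0.05 under any of the 21 alternative settings. Of 482 alternative values of the 24 printed changes, 16 had the other sign, and the cause was not tested. Without the 2 gene-poor libraries these were 0.15 for daf-6 between fractions (averaged), and −0.54 for dyf-7 and 0.044 for dex-1 between genotypes in AMsh. With culture as a replicate block, che-14 between fractions was −0.21, and nab-1 was 0.69 (adjusted p = 0.74, within 0.532 to 1.00 over its alternatives). Leaving out 1 library at a time gave −0.55 to 0.25 (daf-6), −0.061 to 0.45 (che-14), −0.35 to 1.64 (ptr-10) and −0.12 to 0.31 (lit-1) between fractions, and −0.37 to 0.63 (che-14), −0.84 to 0.027 (dex-1) and −1.95 to 0.49 (mam-5) between genotypes in AMsh. Counts over all genes moved more. DESeq2 called 183 genes between fractions in che-2 (edgeR 99), 176 in wild type (73), 260 averaged (146), 883 between genotypes in AMsh (77), 778 in non-AMsh (24) and 4 for the difference (0). With only the 6 libraries compared, 0 genes were called between fractions in che-2, 1 between genotypes in AMsh and 11 in non-AMsh. Without the 2 libraries the counts were 111 for fractions in wild type, 26 for genotypes in AMsh and 290 in non-AMsh. With no filter they were 198 in AMsh and 209 in non-AMsh, with the code as a replicate block 218 and 167, and with median-ratio scaling 14 in non-AMsh. Leaving out 1 library gave 0 to 127 genes for fractions in che-2, 0 to 91 in wild type, 107 to 179 averaged, 0 to 112 for genotypes in AMsh and 0 to 102 in non-AMsh. Counts of 0 to 3 in the gene-poor libraries limit what can be said of dyf-7 and mam-5.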

Other observations

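Markers of ciliated neurons were summed in the same libraries, outside the comparisons above. The 10 genes, components of cilium transport and of sensory channels such as osm-6, che-13 and tax-4, summed to 84.8 to 245 CPM in che-2 AMsh libraries and 52.1 to 58.5 CPM in wild type AMsh libraries. In non-AMsh the sums were 65.5 to 93.4 CPM in che-2 libraries and 21.1 to 44.0 CPM in wild type libraries. Between genotypes none of the 10 genes passed in edgeR's quasi-likelihood test or in DESeq2, 2 in AMsh and 1 in non-AMsh had an unadjusted p under 0.05, beside 12.8% and 10.3% of all tested genes. Their median log2 change was 1.36 in AMsh and 0.65 in non-AMsh, beside 0.12 and −0.01 over all tested genes. The sum of che-2 AMsh E35, the highest of the 12, came with 2 of the 10 genes at 0. In wild type AMsh, 4 of the 10 were at 0 in E30, a gene-poor library, and 2 in E35. The che-2 non-AMsh libraries E30, E35 and E36 had 1, 1 and 2 of them at 0, and each wild type non-AMsh library had 0.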
